A study of Bos taurus with 11 samples.

Results

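The transcripts described here code for proteins of the spliceosome and for splicing factors, in day 7 bovine blastocysts in which GATA3 or CDX2 had been targeted for knockout. A transcript was taken as a member when the symbol paired with its RefSeq accession began with SNRP, SF3, LSM, PRPF, CWC, SRSF, HNRNP or U2AF. This gave 74 of the 8576 transcripts listed in the table of GATA3 KO embryos and 75 of the 12047 listed in the table of CDX2 KO embryos, and 74 members were listed in both. The members comprised 12 SNRP, 9 SF3, 9 PRPF, 3 CWC, 9 SRSF, 18 HNRNP and 3 U2AF symbols in each table, and 11 LSM symbols in the table of GATA3 KO. The table of CDX2 KO listed 12 LSM symbols, because it also held LSMEM1, a leucine-rich single-pass membrane protein that shares the letters of the prefix and is not a splicing protein. The RefSeq gene table held 87 protein-coding symbols with these prefixes, and those without a row in the deposited tables were not analysed here. The SNRP prefix does not take the genes whose symbols begin with SNRNP.

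Blastocysts of 3 groups were compared, namely 3 WT control embryos, 4 targeted at GATA3 (GATA3 KO) and 4 targeted at CDX2 (CDX2 KO), 11 in all, each sequenced as a single embryo by Smart-seq2 from polyadenylated RNA. All of them, the controls included, had been injected as zygotes with mRNA of BE3, a cytosine base editor that turns C into T where a guide RNA directs it, and the KO embryos were in addition given guide RNAs against GATA3 or CDX2, chosen to place a premature stop codon. The embryos came from oocytes matured and fertilised in vitro, and the WT control embryos are thus injected embryos without a guide. The genotype of each sequenced embryo was not analysed here. The same WT control embryos stand in both tables, which were normalised separately, so that every comparison was made within a table.

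Pre-mRNA splicing is carried out by the spliceosome, which is built on each intron from small nuclear ribonucleoproteins (snRNPs), each with a small nuclear RNA and its own proteins. The U1 snRNP recognises the start of the intron, U2AF binds its end and helps the U2 snRNP to the branch point, and the U4/U6.U5 tri-snRNP then joins and is rearranged into the catalytic machine. SR proteins (SRSF) bind exons and mostly favour their inclusion, while heterogeneous nuclear ribonucleoproteins (hnRNPs) coat the transcript and often oppose it, and both also act in mRNA export, stability and translation. In the early embryo, splicing of newly made transcripts starts with activation of the embryonic genome and is needed by every cell of the blastocyst.

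Recovered reads, summed over the transcripts listed, were 150057 to 540775 per embryo in the table of GATA3 KO. In that of CDX2 KO they were 100731 to 662962, and the floor of 3 counts lay between 4.53 and 29.8 CPM. These sums are not sequencing depth, because WT control embryo 1 had 319759 in the former table and 600885 in the latter. GATA3 itself had 71.3 to 87.6 normalised counts in WT control embryos and 9.85 to 13.1 in GATA3 KO embryos, and CDX2 had 6.88 to 11.1 and 1.66 to 4.66 in WT control and CDX2 KO embryos (p = 0.0286 for each by a two-sided exact permutation over 35 splits, the smallest it can give). Y-linked transcripts also differed. WT control embryos had 29 to 98 Y-linked counts in the table of GATA3 KO, whereas GATA3 KO embryos 3, 4 and 5 had 0, 0 and 2 and embryo 6 had 68. In the table of CDX2 KO, the WT control embryos had 46 to 149, CDX2 KO embryos 2, 3 and 4 had 0 and embryo 5 had 155. Trophectoderm markers were detected in every embryo as a list, with a summed level of 3541 to 8027 normalised counts in WT control and 3715 to 5336 in GATA3 KO embryos, and of 4963 to 12403 in WT control and 2444 to 8400 in CDX2 KO embryos. Among single markers in GATA3 KO, GATA2 fell by 1.16 and TFAP2C rose by 1.03 on the log2 scale (limma adjusted p = 0.0344 and 0.0442). Without WT control embryo 2 or GATA3 KO embryo 3, no transcript higher in GATA3 KO passed the threshold used below, TFAP2C included. CDX2 had 4.66 to 9.73 normalised counts in WT control (3 to 9 counts) and 0 to 3.45 in GATA3 KO embryos (0 to 8 counts, exact permutation p = 0.0571). CDX2 was at 0 in some embryo of that table and ELF5 in some embryo of the table of CDX2 KO. The part of these markers in the results on splicing members was not tested. Of 6 cumulus markers, only FSHR was listed in the table of GATA3 KO, with 1 to 5 counts per embryo, and none of 3 sperm markers was listed. In the table of CDX2 KO, 5 cumulus markers summed to 10.8 to 26.4 normalised counts in WT control and 19.9 to 55.2 in CDX2 KO embryos (15 to 45 counts per embryo), and 2 sperm markers to 2.29 to 3.16 and 2.15 to 9.32 (2 to 6 counts). PTX3, INHBA and HAS2 among the former were at 0 in some embryo. Their part in the results was not tested.

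Splicing transcripts were higher in GATA3 KO than in WT control embryos more often than they were lower, in 53 of 69 tested members and in 45 to 49 of them under 2 other scalings (quantile normalisation and median ratios) and 2 other tools (edgeR and DESeq2), and 4 members passed the threshold, all of them higher. These were CWC15, SRSF3, HNRNPH3 and HNRNPK. The test was limma on log2(normalised count + 1) over all 4271 transcripts with a mean of at least 10, and a transcript passed with an adjusted p (Benjamini-Hochberg) no higher than 0.05 and a fold change of 1.5 or more, or of 0.6 or less. The change of low transcripts is understated on this scale. The 4 that passed make 5.8% of those tested, beside 2.01% of all transcripts tested that passed in either direction, 1.55% that were higher and 0.468% that were lower. The split over all transcripts moved with the scaling and the tool, from 66 higher of 86 to 48 of 105 under quantile normalisation, 56 of 109 with median ratios, 63 of 141 with edgeR and 76 of 158 with DESeq2. The 53 members with a higher mean in GATA3 KO are 76.8% (against 57.2% of all transcripts tested), and 18 had an unadjusted p under 0.05 (26.1%, against 22.6%). In 15 members every GATA3 KO embryo stood above every WT control embryo (21.7%, against 11.9% of all transcripts tested), and in 4 members every GATA3 KO embryo stood below (5.8%, against 7.05%). The median log2 fold change was 0.25 over the members and 0.11 over all transcripts tested. Rescaling the embryos gave a median of 0.0029 and 0.0065 over all transcripts (quantile normalisation and median ratios) and of 0.083 and 0.14 over the members. With edgeR and DESeq2, which also change the model, the values were 0.0090 and 0.0027 over all transcripts, and 0.16 and 0.16 over the members. Each library comes from a whole embryo, and a lower level cannot be separated into fewer cells of a type and less RNA per cell.

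**Figure D1:**
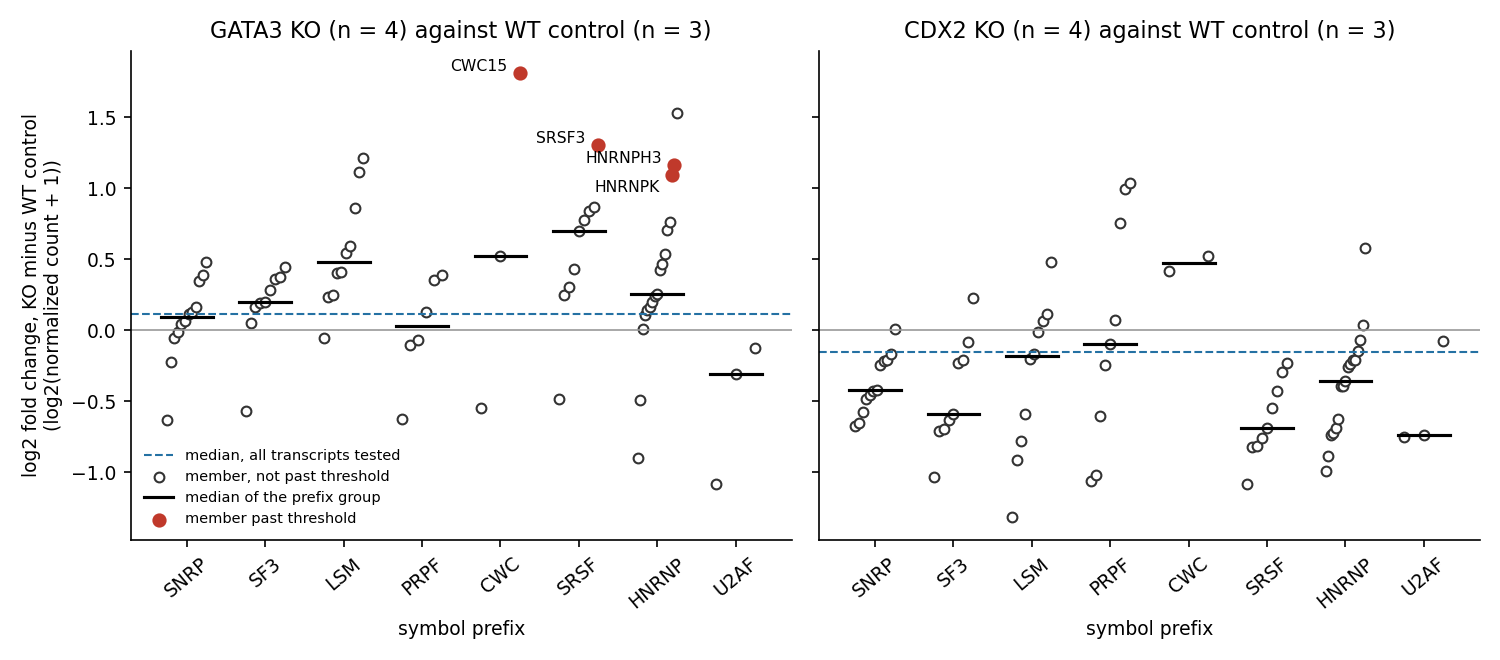
Log2 fold change of each tested member, KO minus WT control on the log2(normalised count + 1) scale, by symbol prefix (n = 4 KO and n = 3 WT control embryos), where filled points passed the threshold, black bars are medians of a prefix group, and the dashed line is the median of all transcripts tested. In GATA3 KO the SRSF median lies at 0.70, and in CDX2 KO no member passed the threshold and the SRSF median lies at -0.68.

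CWC15 is a component of the activated spliceosome, where it accompanies the CDC5L complex. Its transcript (NM_001046399) had 27.6, 11.9 and 14 normalised counts in the WT control embryos (1, 2 and 3) and 78.1, 52.6, 64.3 and 52.5 in the GATA3 KO embryos (3, 4, 5 and 6), the order kept for all members. The groups did not overlap, with WT control embryo 1 nearest to the KO embryos. The means were 17.8 ± 8.54 (SD, n = 3) and 61.9 ± 12.2 (SD, n = 4), and CWC15 rose by 1.81 on the log2 scale (SE 0.31, limma adjusted p = 0.0133), a fold change of 3.51. It lost the call without WT control embryo 2 (adjusted p = 0.0862, limma) and without GATA3 KO embryo 3 (adjusted p = 0.0598).

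SRSF3, the smallest SR protein, binds pyrimidine-rich exonic sites and serves as an adaptor for mRNA export. SRSF3 (NM_001034700) had 67.9, 36.7 and 68.4 normalised counts in WT control, where embryo 2 was lowest, and 135, 149, 135 and 137 in GATA3 KO. The 4 KO embryos lay close together, at 139 ± 6.92 (SD, n = 4) against 57.7 ± 18.1 (SD, n = 3) in WT control. SRSF3 rose by 1.31 on the log2 scale (SE 0.26, limma adjusted p = 0.0211). The adjusted p was 0.105 without WT control embryo 2, 0.0723 without GATA3 KO embryo 3 and 0.0626 without GATA3 KO embryo 4 (limma), each above the threshold of 0.05.

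HNRNPH3 belongs to the hnRNP H/F family, whose members bind G-rich sequences near exons. HNRNPH3 (NM_001206579) had 37.1, 22.7 and 37.3 normalised counts in WT control and 62.2, 70.2, 83.4 and 73.1 in GATA3 KO embryos, with no overlap. It rose by 1.16 on the log2 scale (SE 0.27, limma adjusted p = 0.0335), from 32.4 ± 8.37 (SD, n = 3) to 72.2 ± 8.73 (SD, n = 4). HNRNPK, a KH-domain protein that binds C-rich RNA, was the weakest of the calls. HNRNPK (NM_001034562) had 45.8, 33.5 and 28.0 normalised counts in WT control and 62.2, 84.0, 61.9 and 102 in GATA3 KO embryos, again with no overlap, and rose by 1.09 on the log2 scale (SE 0.28, limma adjusted p = 0.0483). HNRNPH3 kept its call without WT control embryo 1 (limma adjusted p = 0.0195) and without GATA3 KO embryo 6 (0.0389), and the adjusted p was 0.150 without WT control embryo 2, 0.0581 without WT control embryo 3, and 0.0871, 0.0919 and 0.0749 without GATA3 KO embryos 3, 4 and 5. HNRNPK kept its call only without WT control embryo 1 (0.0197), with 0.159 and 0.129 without WT control embryos 2 and 3 and 0.0871, 0.127, 0.0649 and 0.0636 without GATA3 KO embryos 3 to 6 (limma adjusted p).

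**Figure D2:**
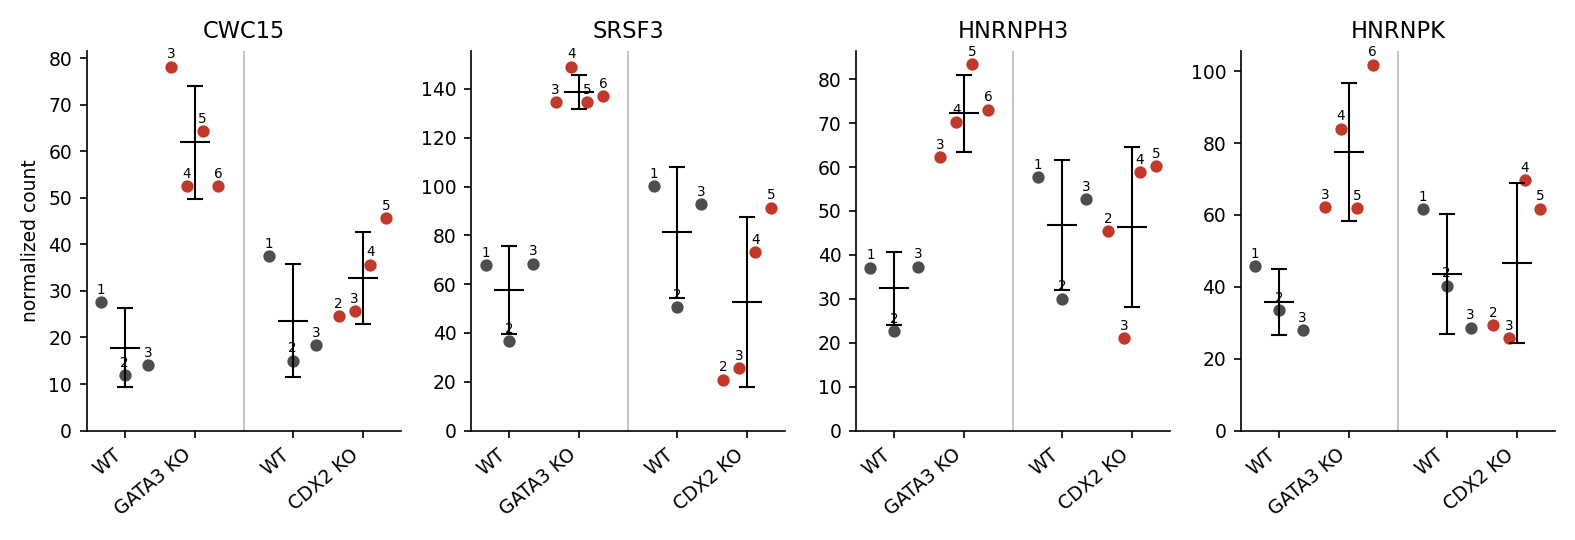
Normalised counts of the members that passed the threshold in GATA3 KO, in each embryo of the table of GATA3 KO (left of the grey line) and of CDX2 KO (right, with its own scaling), where points are embryos with their number and bars are mean ± SD (n = 3 WT control, n = 4 KO). Every GATA3 KO embryo lies above every WT control embryo, and CDX2 KO embryos overlap with those of their table.

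WT control and GATA3 KO embryos differed in Y-linked counts, and the called members were therefore compared among the KO embryos. In GATA3 KO embryo 6, the one with Y-linked counts as in WT control, the log2 difference from the WT control mean was 1.6 for CWC15, 1.29 for SRSF3, 1.19 for HNRNPH3 and 1.51 for HNRNPK. In GATA3 KO embryos 3 to 5 the difference lay between 1.6 and 2.16 for CWC15, 1.26 and 1.41 for SRSF3, 0.957 and 1.37 for HNRNPH3, and 0.805 and 1.24 for HNRNPK. Embryo 6 was thus within the range of the other GATA3 KO embryos for SRSF3 and HNRNPH3, at its lower end for CWC15, and above it for HNRNPK. These members were selected by a fit that included embryo 6, so its higher values were in part set by the selection. In embryos 3 to 5, few or no Y-linked counts went together with the knockout, and the part of each was not tested. With a Y-linked covariate, which leaves the KO effect to embryo 6 alone against the WT control embryos, no member passed and the adjusted p was 0.230 for CWC15, 0.230 for SRSF3, 0.294 for HNRNPH3 and 0.228 for HNRNPK (limma). HNRNPH2, the X-linked member of the hnRNP H/F family, was the hnRNP with the largest log2 fold change, 1.53 (SE 0.49, limma adjusted p = 0.0858). It had 12.6, 2.16 and 14 normalised counts in WT control and 36.2, 28.4, 23.8 and 13.1 in GATA3 KO embryos, so that embryo 6 overlapped with the WT control embryos and the 3 embryos with few or no Y-linked counts did not. Its low value in WT control embryo 2 stands for 2 counts, under the floor of 3, and without that embryo its log2 fold change was 0.80, below those of HNRNPK (1.06) and HNRNPH3 (0.93). It also shares long stretches of sequence with HNRNPH1, between which reads could be split.

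Of all prefix groups with more than 3 tested members, the SR proteins had the highest median log2 fold change in GATA3 KO, 0.70, and it was 0.53 to 0.59 under the other scalings and tools. A higher mean was found in 8 of 9, every KO embryo stood above every WT control embryo in 5, and 5 had an unadjusted p under 0.05, but only SRSF3 passed the threshold. Over all transcripts tested the shares were 11.9%, 22.6% and 2.01%. SRSF6, which binds exonic enhancers, had 82.9, 54.0 and 45.1 normalised counts in WT control and 107, 97.8, 112 and 107 in GATA3 KO embryos (log2 fold change 0.84, limma adjusted p = 0.0753). SRSF7, a relative of SRSF3 with a zinc knuckle, had 109, 69.2 and 65.3 in WT control and 140.4, 123, 133 and 149 in GATA3 KO embryos (0.78, 0.0836). For SRSF9, a short relative of SRSF1, the values were 49.7, 46.5 and 31.1 in WT control and 66.6, 62.9, 70.3 and 73.9 in GATA3 KO embryos (0.70, 0.127). In all 3 of these the groups did not overlap, and the KO embryos were spread less than the WT control embryos. SRSF10, which represses splicing when dephosphorylated, was less even, with 27.6, 30.3 and 29.5 in WT control and 50.7, 68.5, 65.5 and 36.9 in GATA3 KO embryos (0.87, 0.0861), embryo 6 being nearest to WT control. SRSF1, the founding SR protein, had 65.9 to 89.2 normalised counts in WT control and 88.3 to 135 in GATA3 KO embryos, which overlapped, as did SRSF4 and SRSF5, with log2 fold changes of 0.43, 0.30 and 0.25. SRSF11, an SR-related protein that contacts U2AF and the U1 snRNP, went the other way. It had 82.9, 101 and 115 normalised counts in WT control and 69.5, 69.8, 73.8 and 67.3 in GATA3 KO embryos, with no overlap, and a log2 fold change of -0.49 (95% interval -0.98 to 0.011, limma adjusted p = 0.232). Together the SR protein transcripts took 0.203 to 0.227% of recovered reads in WT control and 0.303 to 0.322% in GATA3 KO embryos.

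**Figure D3:**
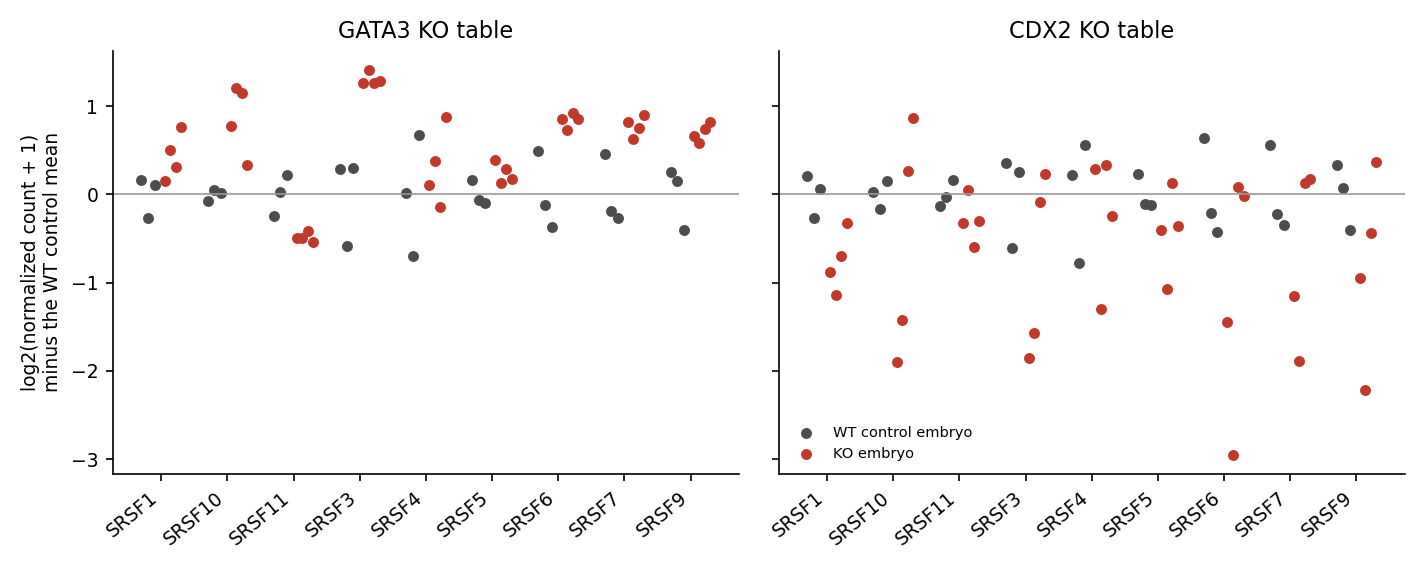
Levels of the 9 SR protein transcripts in each embryo as log2(normalised count + 1) minus the WT control mean of that table, grey for WT control and red for KO embryos. In GATA3 KO, SRSF3, SRSF6, SRSF7, SRSF9 and SRSF10 lie above every WT control embryo and SRSF11 below. In CDX2 KO the lowest points of most SR proteins belong to embryos 2 and 3. Embryos 4 and 5 lie among or near the WT control embryos in most, but embryo 4 is lower in SRSF1 and SRSF11 and embryo 5 higher in SRSF10.

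Among the hnRNPs, 17 of 18 could be tested, 15 had a higher mean in GATA3 KO (12 to 14 under the other scalings and tools) and 2 passed the threshold, HNRNPH3 and HNRNPK, where 57.2% of all transcripts tested had a higher mean and 2.01% passed. The median log2 fold change was 0.25, and 0.093 to 0.20 under the other scalings and tools. HNRNPC, which binds uridine tracts and packages nascent transcripts, had 57.6, 55.1 and 49.7 normalised counts in WT control and 92.6, 86.2, 85.8 and 106 in GATA3 KO embryos, with no overlap, and a log2 fold change of 0.76 (limma adjusted p = 0.0787). The other H/F proteins were HNRNPF, with a log2 fold change of 0.71 (adjusted p = 0.117, limma) and overlapping groups, and HNRNPH1, with 0.54 (0.195) and groups that did not overlap. HNRNPA1, the hnRNP with the highest WT control level, represses exons and has many processed copies in mammalian genomes, to which reads could be split. HNRNPA1 was even in WT control embryos, at 249, 244 and 242 normalised counts, and had 304, 352, 286 and 430.2 in GATA3 KO embryos, all of them higher (0.47, 95% interval -0.0039 to 0.93, limma adjusted p = 0.225). HNRNPM, HNRNPD, HNRNPAB, HNRNPA3, HNRNPL, HNRNPU, HNRNPDL and HNRNPR had log2 fold changes between 0.011 and 0.43, with overlap between the groups in each. The lower ones were HNRNPUL1 and HNRNPUL2, relatives of the scaffold protein HNRNPU. HNRNPUL1 had 63.1, 56.2 and 71.5 normalised counts in WT control and 53.5, 38.8, 56.0 and 34.5 in GATA3 KO embryos, just without overlap (-0.49, adjusted p = 0.283, limma). HNRNPUL2 had 14.2, 23.8 and 23.3 and 17.4, 5.17, 14.3 and 8.21 and overlapped (-0.90, 0.213).

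The LSM proteins form rings, of which LSM2 to LSM8 holds the U6 RNA, and LSM1 in place of LSM8 marks a cytoplasmic ring that promotes mRNA decay. Of 10 tested LSM members, 9 had a higher mean in GATA3 KO, the median log2 fold change was 0.48 (0.35 to 0.40 under the other scalings and tools), and none passed the threshold. LSM6 was the nearest, with 22.1, 11.9 and 14 normalised counts in WT control and 49.2, 28.9, 45.3 and 29.6 in GATA3 KO embryos and no overlap (log2 fold change 1.21, SE 0.32, limma adjusted p = 0.0518). Without WT control embryo 1 its adjusted p was 0.0197, and without GATA3 KO embryo 6 it was 0.0391, while it was 0.0877 to 0.199 without any other embryo, highest without WT control embryo 2 (limma). LSM14A, which is no ring subunit but a component of P-bodies that represses translation, had 27.6, 13.0 and 31.1 and 50.7, 52.1, 42.9 and 54.2 (1.12, 0.0555), also without overlap. LSM3, the LSM member with the highest WT control level, had 59.2, 76.7 and 62.2 normalised counts in WT control and 76.7, 64.2, 109.6 and 69.0 in GATA3 KO embryos (0.25, 95% interval -0.30 to 0.79). The other U6 ring subunits had log2 fold changes of 0.86 (LSM2), 0.23 (LSM4), 0.60 (LSM5), -0.053 (LSM7) and 0.55 (LSM8), with groups that overlapped in each. LSM1 and LSM12 had 0.41 and 0.41.

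The Sm proteins, SNRPB, SNRPD1 to SNRPD3 and SNRPE to SNRPG, form the ring shared by the U1, U2, U4 and U5 snRNPs. SNRPN, counted with them, is a near-copy of SNRPB, and reads could be split between this pair. Over the 12 SNRP members the median log2 fold change was 0.090, near that of all transcripts, and it was -0.047 and -0.017 under quantile normalisation and median ratios and 0.0066 and 0.0023 with edgeR and DESeq2, so that no direction is given for the group. SNRPD3 was the member with the highest WT control level and overlapped between the groups, at 149, 145 and 211 normalised counts in WT control and 111, 153, 181 and 209 in GATA3 KO embryos (-0.057, 95% interval -0.60 to 0.48). SNRPD2, another subunit of the ring, had 97.1, 98.3 and 165 and 50.7, 81.0, 89.3 and 84.6, each KO embryo below each WT control embryo (-0.63, SE 0.28, limma adjusted p = 0.188), and its log2 fold change was -0.38 without WT control embryo 3. SNRPA1, a protein of the U2 snRNP, was the reverse, with 34.7, 31.3 and 40.4 in WT control and 50.7, 52.6, 48.8 and 46.8 in GATA3 KO embryos (0.48, adjusted p = 0.266, limma). The other SNRP members lay between -0.22 (SNRPG) and 0.39 (SNRPA), a protein of the U1 snRNP, and overlapped between the groups.

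SF3A and SF3B are the U2 snRNP complexes that grip the branch point, and no SF3 member passed in GATA3 KO. SF3B1, the large scaffold of SF3B and the SF3 member with the highest WT control level, had 84.4, 74.6 and 73.1 normalised counts in WT control and 97.0, 82.3, 97.7 and 102 in GATA3 KO embryos (0.29, 95% interval -0.20 to 0.78). SF3B2, its partner, had the largest difference of the group, -0.57 (limma adjusted p = 0.259), with 56.8, 56.2 and 93.3 and 30.4, 41.4, 54.8 and 58.3, where GATA3 KO embryo 6 overlapped. WT control embryo 3 was high, and without it the log2 fold change of SF3B2 was -0.33. The other SF3 members had log2 fold changes between 0.048 and 0.44. All U2AF members had a lower mean in GATA3 KO, also under the other scalings and tools, and in U2AF2 every KO embryo stood below every WT control embryo. U2AF2, the large subunit that reads the pyrimidine tract, had 15.8, 25.9 and 40.4 normalised counts in WT control, a wide spread, and 14.5, 10.3, 14.3 and 8.21 in GATA3 KO embryos (-1.08, SE 0.37, limma adjusted p = 0.102). Leaving out 1 embryo moved its log2 fold change from -1.41 (adjusted p = 0.0388, limma, without WT control embryo 1) to -0.76 (adjusted p = 0.335, without WT control embryo 3). U2AF1, the small subunit that reads the last bases of the intron, had 47.3, 51.9 and 52.8 in WT control and 56.4, 33.6, 58.4 and 41.9 in GATA3 KO embryos, with overlap (-0.12, 95% interval -0.69 to 0.45), and U2AF1L4, its close relative, -0.31.

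PRPF proteins belong mostly to the tri-snRNP, and none passed in GATA3 KO. PRPF8, the large core of the U5 snRNP on which the catalytic site is built, overlapped between the groups, with 133, 148 and 123 normalised counts in WT control and 143, 137, 119 and 116 in GATA3 KO embryos (-0.065, 95% interval -0.54 to 0.41). PRPF6, which bridges U5 with U4/U6, had 11.8, 13.0 and 17.1 and 17.4, 7.75, 4.76 and 8.21 (-0.62, adjusted p = 0.438, limma), low values in which 3 of 4 KO embryos stood below WT control. PRPF3, PRPF4, PRPF38A and PRPF39 had log2 fold changes between -0.10 and 0.39, and in PRPF39, a U1-associated protein, every KO embryo stood above WT control. CWC25 and CWC27, which act around the catalytic steps, had log2 fold changes of -0.54 and 0.52 and overlapped between the groups, unlike CWC15. The 5 members that were listed but under the mean of 10 in the table of GATA3 KO were PRPF18, PRPF19, PRPF31, HNRNPLL and LSM10. They had 4.73 to 8.65, 7.77 to 19.5, 7.56 to 20.2, 6.22 to 15.0 and 0.789 to 1.55 normalised counts in WT control embryos, and 7.15 to 11.6, 5.75 to 10.7, 5.79 to 11.5, 3.57 to 14.5 and 1.45 to 4.11 in GATA3 KO embryos, in that order, and overlapped in each.

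Summed over members, splicing transcripts took 1.59%, 1.55% and 1.81% of the reads recovered from WT control embryos 1 to 3. The share was 1.87%, 1.99%, 2.05% and 2.0% in GATA3 KO embryos 3 to 6. The groups did not overlap, though WT control embryo 3 (95% Wilson interval 1.75% to 1.88%) and GATA3 KO embryo 3 (1.81% to 1.94%) were within counting error of each other. Such intervals describe counting error alone and take every read as independent. Reads that PCR copied are no independent molecules, so the intervals are narrower than the error in counting molecules. By group, the share of hnRNP reads was 0.573 to 0.620% in WT control and 0.670 to 0.80% in GATA3 KO embryos, and that of LSM reads 0.119 to 0.137% and 0.161 to 0.184%, both without overlap. SNRP reads took 0.328 to 0.444% and 0.363 to 0.380%, and SF3 reads 0.148 to 0.217% and 0.183 to 0.206%, and in both the GATA3 KO embryos lay inside the range of WT control. The median member stood 0.26, 0.26, 0.34 and 0.33 above the WT control mean on the log2 scale in GATA3 KO embryos 3 to 6, where the median of all transcripts stood 0.12 to 0.13 above it. WT control embryo 2 was the lowest embryo for 25 of 69 members.

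**Figure D4:**
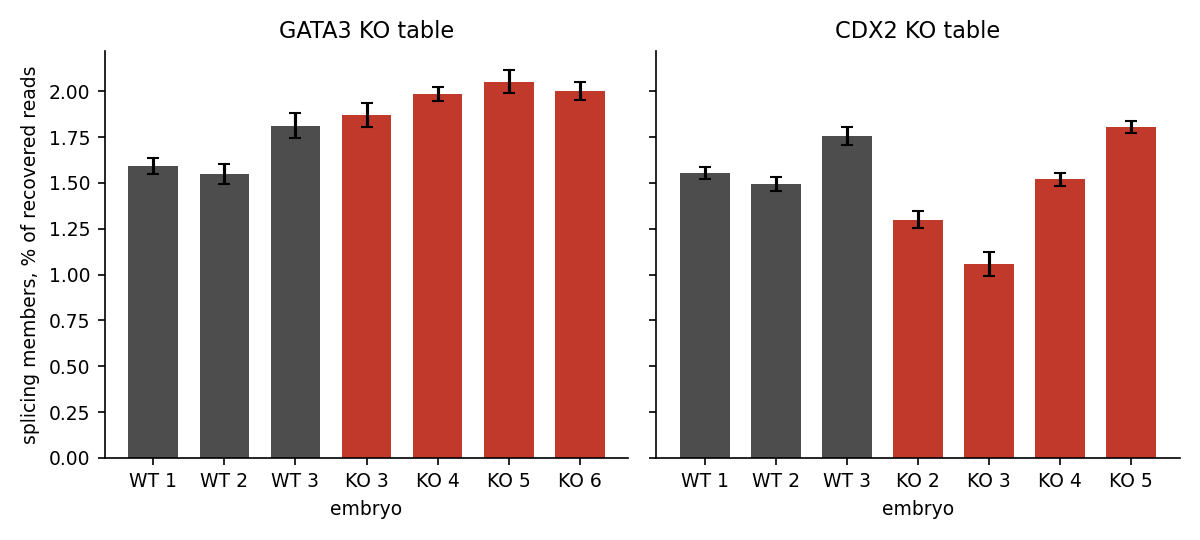
Share of each embryo's recovered reads that fell on splicing members, in percent, with 95% Wilson intervals for counting error, WT control in grey and KO in red. The 4 GATA3 KO embryos (1.87% to 2.05%) lie above the WT control embryos of that table (1.55% to 1.81%), and CDX2 KO embryos 2 and 3 (1.30% and 1.06%) lie below those of theirs (1.49% to 1.76%).

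In CDX2 KO embryos no splicing member passed the threshold in either direction. The tests covered 71 of 75 members among 5719 transcripts, of which 0% passed, and no member passed under any alternative, edgeR and DESeq2 included. Over all transcripts, edgeR passed 1 and DESeq2 9. A higher mean in CDX2 KO was found for 13 members (18.3%, against 39.5% of all transcripts tested), and for 18 to 24 of 71 under the other scalings and tools, 25 of 73 without embryo 3 and 47 of 73 without embryos 2 and 3. In the limma test, 2 had an unadjusted p under 0.05 (2.82%, against 3.27%). Every KO embryo stood above every WT control embryo in 1 member (1.41%, against 2.52%), and below in 3 members (4.23%, against 3.36%). The median log2 fold change was -0.39 over the members and -0.15 over all transcripts tested, which became -0.19 and -0.036 under quantile normalisation, -0.26 and -0.028 with median ratios, -0.15 and 0.011 with edgeR, and -0.14 and 0.027 with DESeq2. With the filter raised to a mean of 100 the order turned, with -0.39 over 15 members and -0.44 over all transcripts tested. Standard errors of single members were 0.36 to 1.01 (median 0.47), where those in GATA3 KO were 0.22 to 0.49 (median 0.28).

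CDX2 KO embryos 2 and 3 carried most of the low values, except among U2AF members, whose median was lowest in embryo 4. Splicing members took 1.30% and 1.06% of recovered reads in embryos 2 and 3, against 1.55%, 1.49% and 1.76% in WT control embryos 1 to 3. Embryos 4 and 5 had 1.52% and 1.80%. The median member stood at -0.48, -1.07, 0.043 and 0.26 relative to the WT control mean in CDX2 KO embryos 2 to 5, and the median of all transcripts at -0.15, -0.39, 0.054 and 0.10. Embryo 3 had the fewest recovered reads, 100731, and was the lowest embryo for 42 of 71 members. It had 10 of 75 members at or under 3 counts, where every other embryo had 3 or fewer. Both embryos also lacked Y-linked counts, as did embryo 4. With the Y-linked covariate, which leaves the effect to embryo 5 against the WT control embryos, the median of the members was 0.26. The part of depth in these low values was not tested. Without embryos 2 and 3, a choice made after seeing the data, the median of the members was 0.11, and still none passed.

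**Figure D5:**
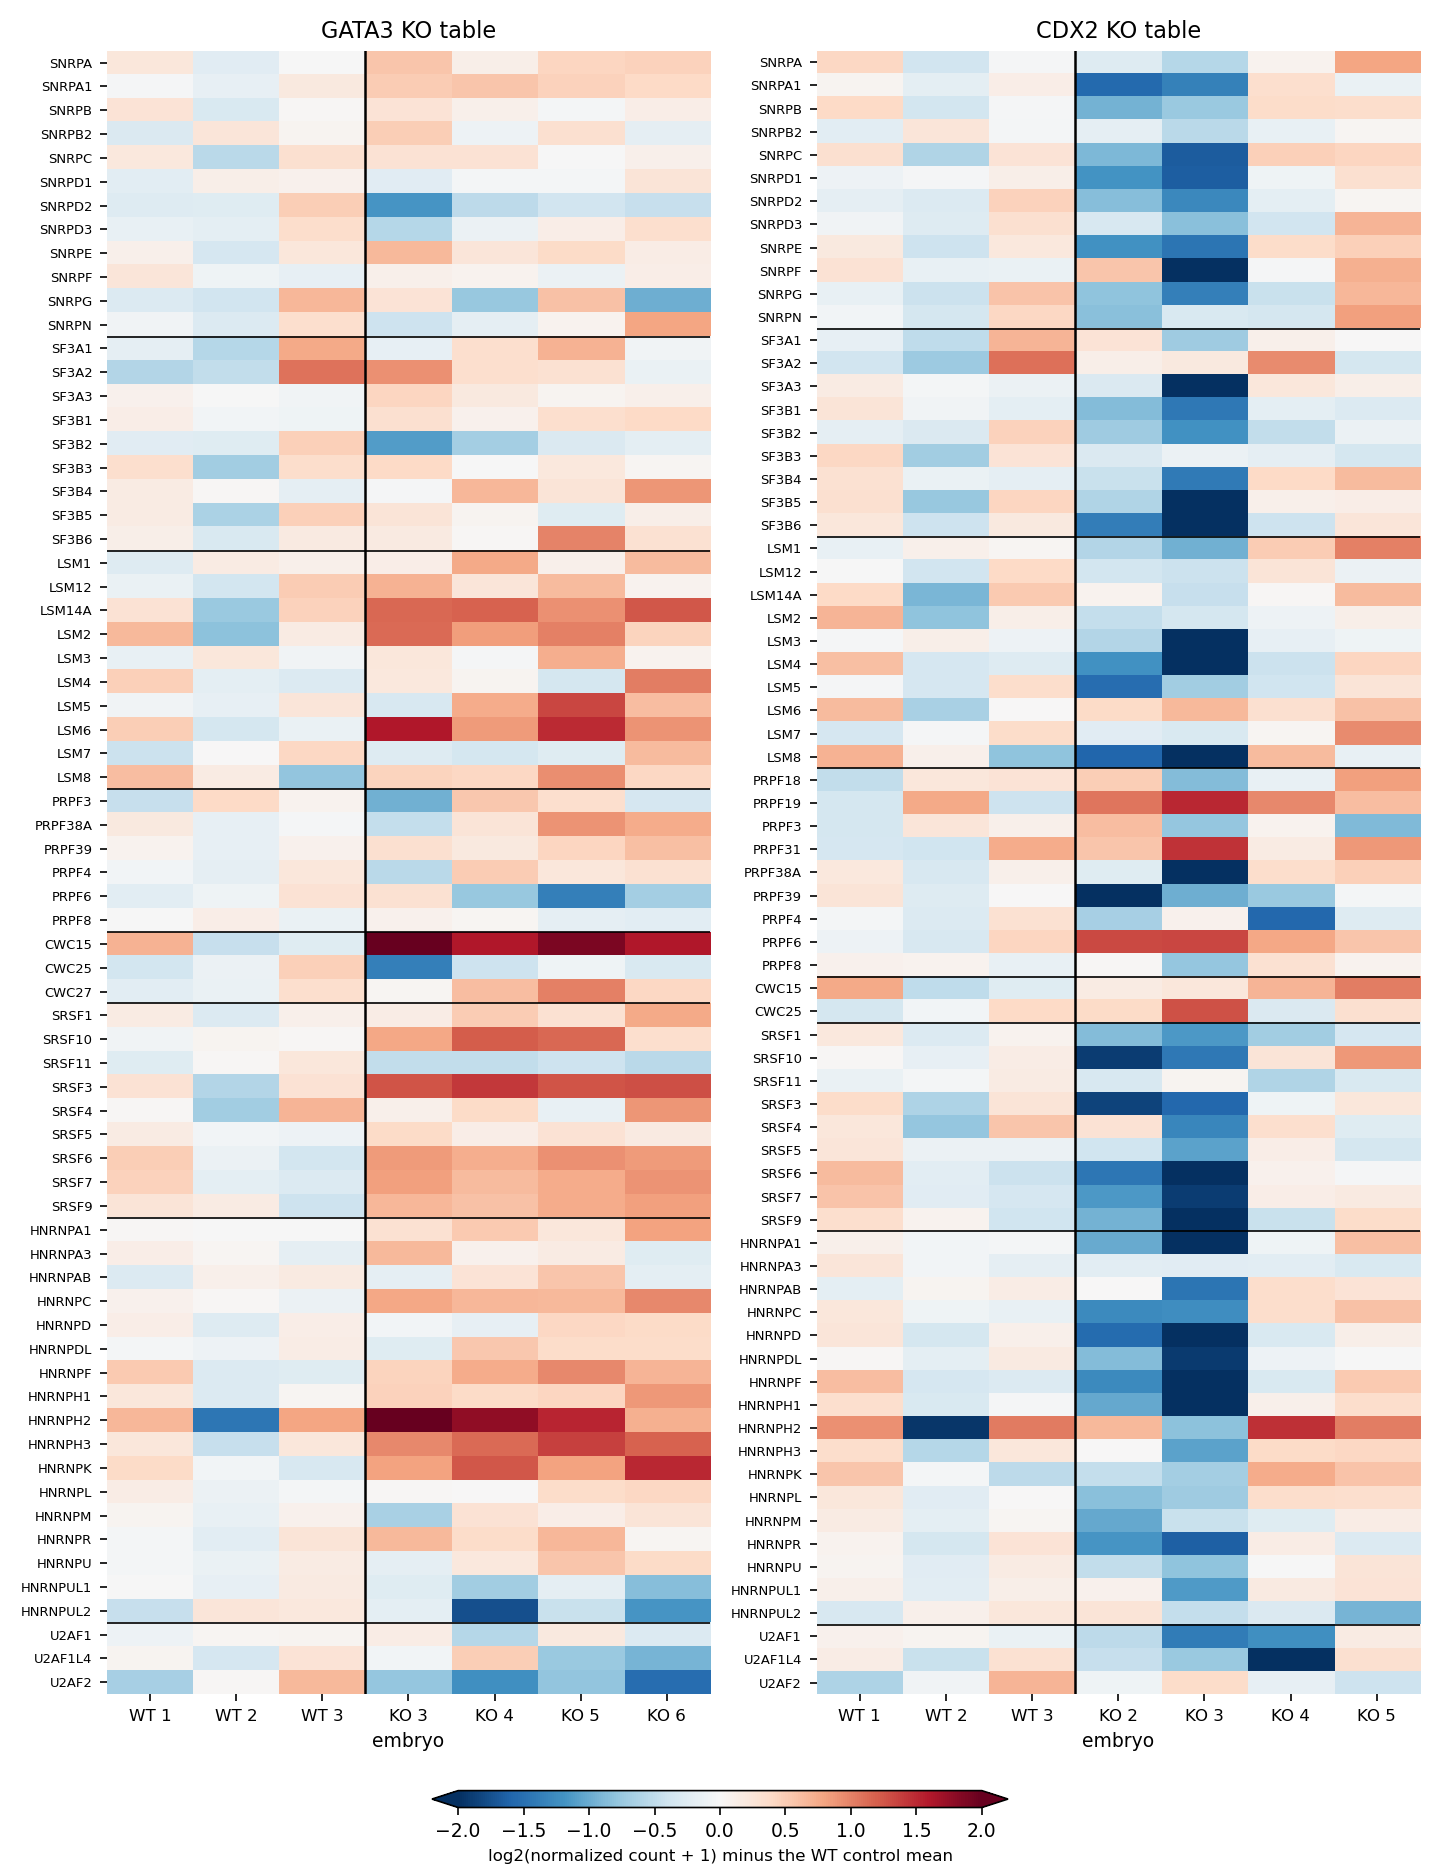
Tested members in each embryo of the GATA3 KO table (69 members) and the CDX2 KO table (71 members), as log2(normalised count + 1) minus the WT control mean of the table, ordered by prefix, with a black vertical line between WT control and KO embryos and colours that end at -2 and 2. Red rows in GATA3 KO include CWC15, SRSF3, LSM6, LSM14A and HNRNPH3, and most dark blue cells in CDX2 KO are in the column of embryo 3.

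Among SR proteins, all 9 had a lower mean in CDX2 KO (median log2 fold change -0.68), which became 8 of 9 under quantile normalisation and stayed at 9 under the other scalings and tools. Without CDX2 KO embryos 2 and 3, 5 of 9 had a higher mean and the median was 0.035. SRSF6 had 123, 67.9 and 58.5 normalised counts in WT control and 28.2, 9.32, 83.8 and 77.9 in CDX2 KO embryos 2 to 5 (-1.08, SE 0.66, limma adjusted p = 0.900), and embryos 4 and 5 lay among the WT control embryos. SRSF1 had 121, 86.1 and 109 in WT control and 56.4, 46.6, 63.9 and 82.7 in CDX2 KO, which was the 1 SR protein with no overlap (-0.76, adjusted p = 0.900, limma). SRSF11, the SR member with the highest WT control level, had 123, 132 and 151 in WT control and 108, 139.8, 88.7 and 109.5 in CDX2 KO embryos (-0.29, 95% interval -1.09 to 0.51), and was not lowest in embryo 3. The other SR proteins had log2 fold changes between -0.82 (SRSF3) and -0.23 (SRSF4).

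The hnRNP members had a median of -0.36, and 15 of 17 had a lower mean, though 10 to 14 did under the other scalings and tools (median -0.23 to -0.15) and 7 of 18 did without embryos 2 and 3. HNRNPD, also called AUF1, which binds AU-rich elements, had the largest difference, with 201, 132 and 182 normalised counts in WT control and 57.6, 35, 137 and 183 in CDX2 KO embryos (-0.99, SE 0.54, limma adjusted p = 0.900). HNRNPA1 spread from 83.9 to 522 normalised counts over CDX2 KO embryos and only from 329 to 365 over WT control embryos (-0.62, 95% interval -1.81 to 0.56). HNRNPA3, by contrast, was even, at 28.2, 28.0, 28.2 and 26.3 in CDX2 KO and 38.7, 31.6 and 28.7 in WT control embryos. The groups only just did not overlap (-0.24, adjusted p = 0.931, limma), where 1 count in WT control embryo 3 is 1.15 normalised counts. The highest hnRNP was HNRNPH2, with 0.58, and the next lowest after HNRNPD was HNRNPF, with -0.89.

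Of the snRNP proteins, 11 of 12 SNRP and 8 of 9 SF3 members had a lower mean in CDX2 KO, 9 to 11 and 6 to 7 of them under the other scalings and tools, where 39.5% of all transcripts tested had a higher mean. Without embryos 2 and 3 the direction turned, with a higher mean in 10 of 12 SNRP and 5 of 9 SF3 members. SNRPA1 had 50.7, 42.7 and 53.9 normalised counts in WT control and 15.9, 18.6, 62.2 and 44.6 in CDX2 KO embryos (-0.67, adjusted p = 0.900, limma), with embryos 2 and 3 low and embryo 4 above WT control. SNRPD3 had 216, 189 and 281 in WT control and 180.2, 126, 172 and 362 in CDX2 KO embryos (-0.22, 95% interval -1.15 to 0.72). In this Sm protein embryo 5 was the highest of all embryos and embryo 3 the lowest, and the other SNRP members lay between -0.65 (SNRPD1) and 0.0081 (SNRPA). SF3B1 had 130.0, 103 and 95.1 in WT control and 58.8, 39.6, 94.5 and 89.7 in CDX2 KO embryos (-0.69, SE 0.42, limma adjusted p = 0.900). It was the 1 SF3 member with no overlap, though only just, as 1 count in WT control embryo 3 is 1.15 normalised counts. SF3B6, the subunit that contacts the branch point adenosine, had 88.2, 56.1 and 86.0 in WT control and 28.2, 11.7, 56.4 and 89.1 in CDX2 KO (-1.04, 0.900). The other SF3 members ranged from -0.71 (SF3B5) to 0.23 (SF3A2). U2AF1 had 73.6, 71.9 and 63.0 in WT control and 47.8, 25.6, 29.0 and 77.9 in CDX2 KO embryos, with embryos 3 and 4 lowest (-0.75, 0.900), and U2AF2, low in GATA3 KO, had a log2 fold change of -0.072. Unlike the SNRP and SF3 groups, all 3 U2AF members kept a lower mean without embryos 2 and 3 (median -0.53). Their median relative to the WT control mean was -1.23 in embryo 4.

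The LSM members were mixed, 7 of 10 with a lower mean, 6 to 7 under the other scalings and tools and 2 without embryos 2 and 3. LSM3 had 92.6, 103 and 88.3 in WT control and 62.5, 18.6, 83.8 and 88.6 in CDX2 KO (-0.78), again lowest in embryo 3. LSM8 was at 0 counts in CDX2 KO embryo 3, which allows up to 6.99 normalised counts there, and had 27.9, 18.2 and 9.17 in WT control and 4.90, 0, 26.5 and 15.0 in CDX2 KO embryos (-1.32, SE 0.98, limma adjusted p = 0.900). LSM6, the highest of them, had a log2 fold change of 0.48.

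Some members of the tri-snRNP and of the activated spliceosome did not share these low values. PRPF6 had 14, 11.8 and 20.6 normalised counts in WT control and 39.2, 39.6, 26.5 and 22.6 in CDX2 KO embryos, and was the 1 tested member in which every KO embryo stood above every WT control embryo (1.0, SE 0.41, limma unadjusted p = 0.0290, adjusted p = 0.900). PRPF19, the ubiquitin ligase of the CDC5L complex, had 10.8, 24.5 and 10.3 and 30.6, 41.9, 28.2 and 22 (1.04, limma unadjusted p = 0.0326, adjusted p = 0.900), where WT control embryo 2 overlapped. Both were singled out after their values were seen, and embryos 2 and 3 had the highest values in both. CWC15 had 37.4, 15.0 and 18.3 in WT control and 24.5, 25.6, 35.7 and 45.6 in CDX2 KO embryos and overlapped (0.52, 95% interval -0.42 to 1.47, limma adjusted p = 0.900). PRPF8 had 208, 205 and 178 in WT control and 199.8, 114, 242 and 207 in CDX2 KO, embryo 3 being lowest (-0.095, 95% interval -0.95 to 0.76). PRPF38A, a protein of the spliceosome before its activation, was at 0 counts in embryo 3 and had 22.1 to 32.4 normalised counts in WT control, while CDX2 KO embryos 2, 4 and 5 had 23.3, 35.7 and 39.2 (-1.06, SE 1.01, adjusted p = 0.900, limma). The 4 members listed but not tested were CWC27, HNRNPLL, LSM10 and LSMEM1, whose values in CDX2 KO embryos were 2.33 to 14.7, 2.33 to 15.0, 2.33 to 14.9 and 0 to 4.90 normalised counts, against 10.3 to 13.8, 6.32 to 22.2, 1.27 to 2.29 and 1.27 to 4.59 in WT control embryos. LSM10, a subunit of the U7 ring that processes histone mRNA and not of the spliceosome, stood higher in every CDX2 KO embryo than in any WT control embryo, at 1 to 18 counts against 2 in each WT control embryo, too few to test. The remaining PRPF members ranged from -1.02 (PRPF39) to 0.76 (PRPF31).

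The comparisons share their WT control embryos and are set side by side here without a test between them. For the members that passed in GATA3 KO, the log2 fold changes in GATA3 KO and CDX2 KO were 1.81 and 0.52 for CWC15, 1.31 and -0.82 for SRSF3, 1.16 and -0.069 for HNRNPH3, and 1.09 and 0.036 for HNRNPK. The 95% intervals in CDX2 KO were -0.42 to 1.47, -2.0 to 0.36, -1.07 to 0.93 and -0.98 to 1.05, in that order. SRSF3 had 100.2, 50.6 and 92.8 normalised counts in WT control and 20.8, 25.6, 73.0 and 91.3 in CDX2 KO embryos, embryos 2 and 3 being the low ones. Whether the effects differ between the knockouts was not tested.

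Beyond the prefixes, other genes of the pathway were read from the same fits, where 2.01% of all transcripts tested passed in GATA3 KO and 22.6% had an unadjusted p under 0.05. Of 42 tested other core spliceosome components, 1 passed in GATA3 KO (median log2 fold change 0.15), SMU1, a protein needed to activate the spliceosome. SMU1 had 23.7, 30.3 and 18.7 normalised counts in WT control and 60.8, 55.1, 48.8 and 51.7 in GATA3 KO embryos, and rose by 1.15 on the log2 scale (limma adjusted p = 0.0344). Of 10 tested genes listed for snRNP assembly, all had a higher mean in GATA3 KO (median 0.68), where 57.2% of all transcripts tested did, and 1 passed. That was CLNS1A, a chaperone that binds newly made Sm proteins and acts with the PRMT5 complex, with 18.1, 9.73 and 18.7 and 39.1, 42.2, 34.5 and 35.3 normalised counts (1.28, limma adjusted p = 0.0344). Without WT control embryo 2 or GATA3 KO embryo 3, no transcript passed as higher, so both SMU1 and CLNS1A lost the call. None of 9 exon junction complex genes passed (median 0.56, 5 with an unadjusted p under 0.05), and none of 23 other splicing regulators and SR kinases (median 0.050, 2 with an unadjusted p under 0.05). In CDX2 KO none passed in any of these lists, of which 44, 10, 9 and 25 genes were tested, with medians of -0.25 for the core components, -0.38 for snRNP assembly, -0.56 for the exon junction complex and -0.17 for the regulators. No gene of these lists had an unadjusted p under 0.05 in CDX2 KO (limma).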

How the data were processed

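RNA was measured in 11 single bovine blastocysts. Trimmomatic, Hisat2, featureCounts and DESeq2 were the authors' tools for trimming, mapping, counting and normalising. The deposited signal is thus, for each embryo, read counts over its size factor, set separately in each table. Columns of fold changes, standard errors, test statistics and p-values from the authors' comparisons were not used. All values were whole multiples of 1 step per column (100% within 0.01 of a whole number), from which counts were recovered. Recovered member counts of WT control embryos 1 to 3 were 1.83, 1.79 and 1.83 times as many in the table of CDX2 KO as in that of GATA3 KO, and levels were compared only within a table. KO columns carry numbers of their own (GATA3 KO 3 to 6, CDX2 KO 2 to 5) and were matched to a group only. Symbols came from a RefSeq table (assembly ARS-UCD2.0), which held 98.6% of accessions, with 1 accession per member, and no coordinates were taken from it. No sequences were used here.

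Transcripts with a mean of at least 10 were tested with limma 3.58.1 (R 4.3.3, trended prior) on log2(normalised count + 1), with Benjamini-Hochberg adjustment over all of them. Single values were tested by two-sided exact permutation over 35 splits (Python 3.11.15, scipy 1.17.1, numpy 2.4.6, pandas 2.3.3). Standard errors and 95% intervals come from limma. Alternatives changed the pseudocount (0.1 or 5), the filter (none, or a mean of 100 or more), the scaling (quantile normalisation or median ratios), the fold change (2 or 0.5), the trend (none) and the tool (edgeR 4.0.16 and DESeq2 1.42.0 on recovered counts), added a Y-linked covariate or left out each embryo, and, added after seeing the data, leaving out CDX2 KO embryos 2 and 3. The code was tested on simulated counts. The members and lists were chosen with earlier results of these data known. Named members were those that passed and, in each prefix group, the tested member with the highest WT control mean and that with the largest absolute log2 fold change. Other members named were chosen after their values were seen.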

Additional observations from a re-analysis of the deposited data

How the results depend on the processing

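Of the members that passed in GATA3 KO (4), edgeR, DESeq2 and a fold change of 2 or 0.5 kept the same 4, and the count was 3 with a pseudocount of 0.1, 6 with 5, 5 with no filter and 3 under quantile normalisation or median ratios. It was 1 at a mean of at least 100, where 14 members were tested, 1 without a trend and 0 with the Y-linked covariate. Leaving out 1 embryo gave 0 to 11, namely 11 without WT control embryo 1, 0 without WT control embryo 2, 2 without WT control embryo 3, and 0, 1, 2 and 5 without GATA3 KO embryos 3, 4, 5 and 6. The cause was not tested. Over all transcripts the number that passed was 86 (66 higher), 105 (48 higher) under quantile normalisation, 109 (56) with median ratios, 141 (63) with edgeR and 158 (76) with DESeq2. The number was 73 with a pseudocount of 0.1, 145 with 5 and 172 of 8576 with no filter. At a mean of at least 100 it was 37 of 395, and without a trend 16. Without WT control embryos 1, 2 and 3 it was 304, 1 and 20. Without GATA3 KO embryos 3, 4, 5 and 6 it was 1, 25, 45 and 187, so the member counts moved together with the counts over all transcripts. The median log2 fold change of the members in GATA3 KO (0.25) was 0.083 under quantile normalisation, 0.14 with median ratios, 0.16 with edgeR, 0.16 with DESeq2, 0.33 with the Y-linked covariate and 0.18 to 0.32 without 1 embryo. In CDX2 KO the count was 0 under every alternative run, and the median (-0.39) was 0.26 with the Y-linked covariate, 0.11 without embryos 2 and 3, -0.15 without embryo 3 and -0.54 without embryo 5, the ends of the range without 1 embryo.

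Several members that had not passed changed sign. In GATA3 KO, SNRPD3 reached 0.33 with the Y-linked covariate and -0.19 to 0.12 without 1 embryo (0.12 without WT control embryo 3 and 0.11 without GATA3 KO embryo 3), PRPF8 -0.13 to 0.0045 and U2AF1 -0.23 to 0.029. In CDX2 KO the Y-linked covariate gave 0.61 for HNRNPA1, 0.11 for HNRNPD, 0.48 for PRPF38A, 0.076 for PRPF8, 0.24 for SF3B6, 0.68 for SNRPD3 and 0.16 for U2AF1. Without CDX2 KO embryos 2 and 3 the values were 0.26 for HNRNPA1, 0.24 for LSM8, 0.42 for PRPF38A, 0.19 for PRPF8, 0.11 for SNRPA1, 0.15 for SNRPD3 and 0.035 for SRSF6. Quantile normalisation gave 0.29 for PRPF8, 0.21 for SNRPD3 and 0.13 for SRSF11, and PRPF8 was 0.036 with median ratios, 0.042 with edgeR and 0.064 with DESeq2. Without 1 embryo, PRPF38A ranged from -1.58 to 0.20 and PRPF8 from -0.23 to 0.13, both highest without CDX2 KO embryo 3. Over all named members and alternatives, 489 values kept their direction and side of the threshold, 27 reversed, 26 no longer passed and 6 passed only then. The 489 include values of members that had not passed and stayed so. Of the members that had passed, CWC15 lost the call in 3 alternatives and kept it in 14, and SRSF3 in 5 and 13. For HNRNPH3 these were 7 and 10, and for HNRNPK 11 and 6. No paired analysis was possible because the KO columns carry numbers that are not the labels' replicate numbers. Depth limits low members most, since 3 counts amount to 6.99 normalised counts in CDX2 KO embryo 3.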
